A study of Mus musculus with 7 samples.

Results

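The outer dense fibres and the fibrous sheath are the cytoskeletal structures that surround the axoneme of the mammalian sperm tail. RNAs of 10 mouse genes for these structures were examined in sperm: Odf1, Odf2, Odf4, Akap3, Akap4, Fsip1, Fsip2, Ropn1, Ropn1l and Cabyr. They were found through the gene annotation of the array platform, and 11 probe sets of 23493 with 1 gene symbol belonged to them. Odf1 had 2 probe sets, called A and B here in the order of their mean level, and each other gene had 1. All 10 genes had a probe set, and 0 probe sets annotated to several genes held any of them.

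The study compared sperm RNA on 7 arrays, each a pool of males. TG3 males (3 arrays, 4 males in each pool) carried a KDM1A transgene, which encodes a histone lysine demethylase. The construct had been injected into C57BL/6 zygotes, and after 2 female founders it was passed on for 3 generations by heterozygous males mated to C57BL/6 females. NonTG3 males (3 arrays, 4 males in each pool) were the wild-type littermates of that generation, so they share the line's breeding but not the transgene. The remaining array held 1 pool of 5 C57BL/6 males, labelled as control, and has no replicate. TG3 and nonTG3 together are called the line. Neither the promoter of the transgene nor the age of the males is given in the labels. They also do not say whether pools could share a male, and p-values here measure only how far these pools spread.

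Outer dense fibres run along the midpiece and principal piece outside the axonemal doublets and stiffen the tail. The fibrous sheath replaces the mitochondrial sheath in the principal piece, as a pair of longitudinal columns joined by ribs. It is built mainly from the A-kinase anchoring proteins Akap4 and Akap3, which tether protein kinase A and other signalling proteins, and it also carries enzymes of glycolysis. The genes are transcribed in spermatids before transcription stops, so sperm are held to keep RNA left from the spermatid supply. RNA of these genes from other cells in a pool was not measured apart.

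The promoters of Akap3 and Akap4 are shown because they share an identical stretch of sequence close to the start site. RefSeq's promoter table, of build GRCm38.p6, reaches from 250 bases before to 50 bases after a gene's start. Entries of 7 of the 10 genes were used: Odf2, Odf4, Akap3, Akap4, Fsip2, Ropn1 and Ropn1l. No entry of Odf1, Fsip1 or Cabyr was used, so the motif counts among the entries used do not cover these genes. Both sequences lie on the plus strand and are written 5′ to 3′, and the capitals mark the shared run of 20 bases. The Akap3 promoter is chr6:126852848-126853147 and the Akap4 promoter is chrX:7067265-7067564.
Akap3: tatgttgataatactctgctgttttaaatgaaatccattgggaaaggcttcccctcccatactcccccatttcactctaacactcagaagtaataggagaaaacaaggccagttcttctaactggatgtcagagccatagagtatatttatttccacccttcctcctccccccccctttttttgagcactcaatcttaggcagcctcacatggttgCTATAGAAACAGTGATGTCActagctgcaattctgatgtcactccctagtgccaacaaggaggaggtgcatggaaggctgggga
Akap4: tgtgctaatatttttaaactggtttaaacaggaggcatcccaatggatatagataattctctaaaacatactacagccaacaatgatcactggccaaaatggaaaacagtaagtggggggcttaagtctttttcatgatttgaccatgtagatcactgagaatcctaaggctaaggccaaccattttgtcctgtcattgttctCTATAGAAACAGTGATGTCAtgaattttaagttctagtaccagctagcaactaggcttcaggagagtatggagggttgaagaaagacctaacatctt
The run begins 34 bases before the start site in Akap3 and 47 bases before it in Akap4. On either strand it was found in 2 of 32851 promoter entries, both printed above (0.00609%). The run ends with TGATGTCA, which differs in its middle from the cyclic AMP response element TGACGTCA. Searched on both strands, TGATGTCA was in 3.62% of all promoter entries. Among the 11 entries used, it was in 2, the Akap3 and Akap4 entries printed here. Akap4 has another entry, chrX:7067960-7068259, which holds neither the run nor this motif. Akap3 holds it again 1 base before the start site. TGACGTCA and TATAAA, found in 1.79% and 13.6% of all entries, were in 0 of the 11. The X-box of regulatory factor X proteins was in 0.645% of all entries and in that of Akap3, where GTTGCTATAGAAAC begins 38 bases before the start site and overlaps the shared run. These are matches of letters in a window, chosen after the sequences were seen, and binding was not measured.

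All values below are log2 intensities as deposited by the authors, made with RMA, a method that subtracts background, gives all arrays the same distribution and merges the probes of each set into 1 value. The medians of the 7 arrays lay between 3.52 and 3.61, and all 11 probe sets lay above the median of every array. A probe set's brightness depends on its own probes, so levels are compared between arrays and not between genes. In RMA's output 6 of the 11 probe sets had exactly equal values on some arrays of the line. Fewer cells of a type and less RNA per cell cannot be told apart in such pools.

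The sperm label was checked against marker lists. Of 7 measured sperm and spermatid markers, among them Prm1, Tnp1 and Smcp, the mean was 9.77 on the C57BL/6 array, 8.55 to 8.68 on the TG3 arrays and 8.62 to 8.89 on the nonTG3 arrays. Means of 9 Sertoli and Leydig cell markers were 3.95, 3.38 to 3.56 and 3.27 to 3.41 in the same order. For 8 leukocyte markers they were 3.47, 3.53 to 3.63 and 3.13 to 3.49, and for 8 markers of the epididymal epithelium 4.37, 4.58 to 5.01 and 4.24 to 4.86. Those of 9 fibroblast, muscle and vessel markers were 4.84, 4.75 to 6.12 and 5.14 to 5.79. For 7 spermatocyte and spermatogonial markers they were 4.90, 3.94 to 4.45 and 4.32 to 4.48. The 5 haemoglobin and erythroid markers had no probe set of a single gene. The mean of 10 mitochondrially encoded RNAs was 11.24 on C57BL/6. It was lowest in TG3 replicate 1, at 8.80, and in nonTG3 replicate 3, at 8.91, and lay between 9.98 and 11.55 in the remaining 4 pools of the line.

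The pools of the line read lower for Fsip2 and Ropn1l than the C57BL/6 pool, while both probe sets of Odf1 read close to that pool. This comparison sets all 6 pools of the line, 3 of them from carriers of the transgene, against 1 separate pool of the parent strain. Breeding, transgene and pool, with whatever cells a pool held, cannot be told apart in it. Of the 11 probe sets 2 fell at a limma adjusted p under 0.05 and 0 rose, where 2.85% of all 23493 probe sets were called lower and 0.17% higher. Counting each gene once, by its brighter probe set, the median difference over the 10 genes was -1.04 log2 units, against 0.037 over all probe sets. The C57BL/6 array lay above all 6 arrays of the line for 9 of the 11 probe sets, where 14.3% of all probe sets did so, and below all 6 for 0 of the 11, against 18.2%. The exceptions were the probe sets of Odf1. At an unadjusted p under 0.05, 6 of the 11 were lower (7.96% of all probe sets), and 10 of the 11 had a lower mean (38.9%). The spread behind these tests comes from the line alone, because the C57BL/6 array has no replicate.

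**Figure D1:**
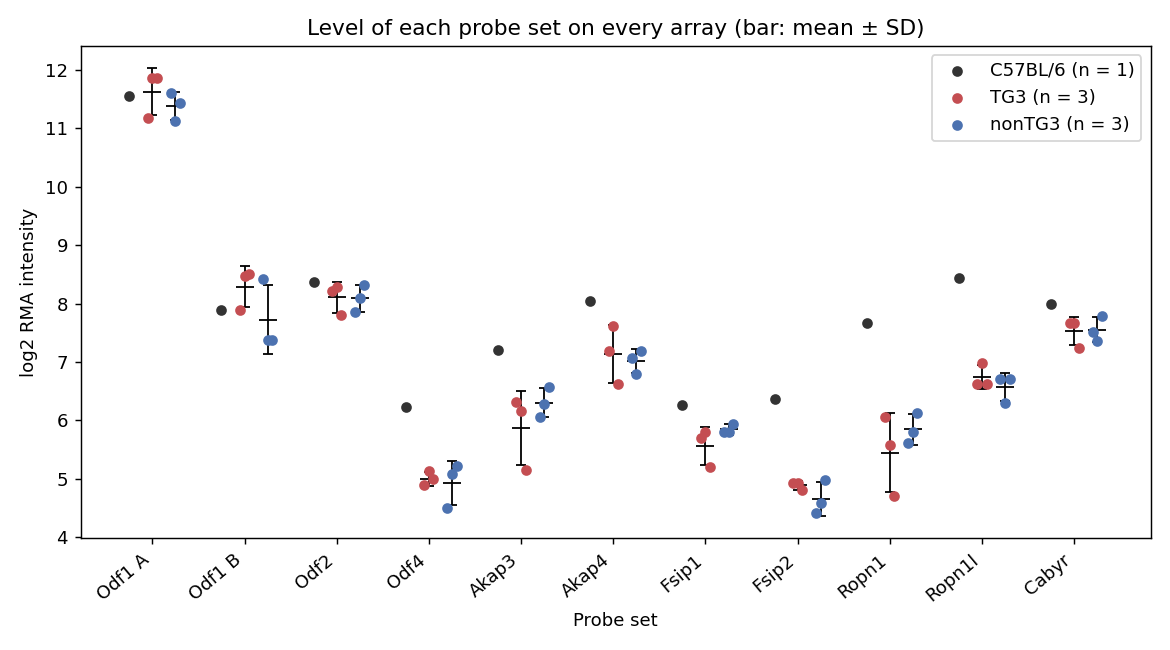
Level of each of the 11 probe sets on every array, as log2 RMA intensity on the vertical axis. Points are arrays (C57BL/6, n = 1; TG3, n = 3; nonTG3, n = 3) and bars are the mean ± SD of a group; the C57BL/6 point lies above all 6 other points for every probe set except Odf1 A and Odf1 B.

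Odf1 encodes a major cysteine-rich protein of the outer dense fibres, related to small heat shock proteins. Its probe set A read 11.55 on the C57BL/6 array, 11.17, 11.86 and 11.86 in the TG3 pools (replicates 1, 2 and 3, in that order throughout), and 11.61, 11.12 and 11.43 in the nonTG3 pools (likewise). The C57BL/6 value lay among those of the line, with 3 arrays above it and 3 below. The difference was -0.04 log2 units (SE 0.31, 95% interval -0.82 to 0.74; limma adjusted p = 1). Probe set B read 7.89 on C57BL/6, 7.89, 8.48 and 8.50 on TG3, and 8.42, 7.38 and 7.38 on nonTG3. Here too the C57BL/6 value lay within the range of the line, and the difference was 0.12 (SE 0.45, 95% interval -1.0 to 1.25; limma adjusted p = 1). Its intervals leave room for a change of up to about 1 log2 unit either way, and the sign of these small differences turned under some alternatives.

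Odf2 is a coiled-coil protein of the outer dense fibres that is also found at the centrosome. It read 8.37 on C57BL/6, 8.22, 8.29 and 7.80 on TG3, and 7.86, 8.10 and 8.32 on nonTG3. C57BL/6 was highest, but only by 0.05 over nonTG3 replicate 3, and the difference of -0.27 did not pass (SE 0.24; limma adjusted p = 0.925). Odf4, a testis protein assigned to the same fibres, read 6.23 on C57BL/6, 4.89, 5.13 and 4.99 on TG3, and 4.51, 5.08 and 5.21 on nonTG3. The C57BL/6 array stood 1.02 log2 units above the highest of the line. The difference was -1.26 (SE 0.27, 95% interval -1.93 to -0.59) and missed the threshold (limma adjusted p = 0.0900). It passed without nonTG3 replicate 1, the lowest array for this gene (-1.15, limma adjusted p = 0.0413), and over all 6 leave-one-out fits the adjusted p ran from 0.0413 to 0.190.

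Akap4 is the most abundant structural protein of the fibrous sheath, encoded on the X chromosome, and Akap3 is its partner in the ribs. Akap4 read 8.05 on C57BL/6, 7.19, 7.61 and 6.62 on TG3, and 7.07, 6.79 and 7.19 on nonTG3. Akap3 read 7.21 on C57BL/6, 6.31, 6.17 and 5.15 on TG3, and 6.06, 6.28 and 6.57 on nonTG3. For both, C57BL/6 was the highest array and TG3 replicate 3 the lowest. The differences were -0.97 for Akap4 (SE 0.36; limma adjusted p = 0.352) and -1.12 for Akap3 (SE 0.45; limma adjusted p = 0.405), and neither passed. Without TG3 replicate 3 they were -0.84 and -0.94 (limma adjusted p = 0.245 and 0.164).

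Fsip1 and Fsip2 are named for their interaction with Akap4, and loss of Fsip2 is known to disturb the fibrous sheath in humans and mice. Fsip2 read 6.37 on C57BL/6, 4.94, 4.94 and 4.80 on TG3, and 4.41, 4.58 and 4.98 on nonTG3. The C57BL/6 value was 1.39 log2 units above the highest array of the line, whose own arrays spanned 0.57. Fsip2 fell 3.01-fold, by 1.59 log2 units (SE 0.21, 95% interval -2.12 to -1.06; limma adjusted p = 0.0218). Fsip1 read 6.26 on C57BL/6, 5.70, 5.79 and 5.19 on TG3, and 5.79, 5.79 and 5.95 on nonTG3. Its difference of -0.56 did not pass (SE 0.23; limma adjusted p = 0.436).

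Ropn1 and Ropn1l encode the ropporins, which carry a docking domain like that of the regulatory subunit of protein kinase A and bind Akap3. Ropn1l read 8.43 on C57BL/6, 6.62, 6.98 and 6.62 on TG3, and 6.71, 6.29 and 6.71 on nonTG3. The groups did not overlap, with 1.45 log2 units between C57BL/6 and the highest array of the line. Ropn1l fell 3.43-fold, by 1.78 log2 units (SE 0.22, 95% interval -2.33 to -1.22; limma adjusted p = 0.0178). Ropn1 read 7.66 on C57BL/6, 6.05, 5.58 and 4.71 on TG3, and 5.61, 5.80 and 6.12 on nonTG3. Its mean difference was larger, at -2.02, but the arrays of the line spanned 1.41 log2 units and it did not pass (SE 0.48, 95% interval -3.20 to -0.83; limma adjusted p = 0.125). It passed after cyclic loess normalization (-2.10, limma adjusted p = 0.0402).

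Cabyr, a calcium-binding protein of the sheath with a similar docking domain, read 8.0 on C57BL/6, 7.66, 7.66 and 7.25 on TG3, and 7.51, 7.36 and 7.79 on nonTG3. C57BL/6 stood 0.20 above the highest array of the line, and the difference of -0.46 did not pass (SE 0.23; limma adjusted p = 0.556). Across the structures, then, the differences ran from -0.04 to -2.02 by the brighter probe set of each gene, and 6 of the 11 intervals lay wholly below 0. Those 6 were Odf4, Akap3, Akap4, Fsip2, Ropn1 and Ropn1l.

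**Figure D2:**
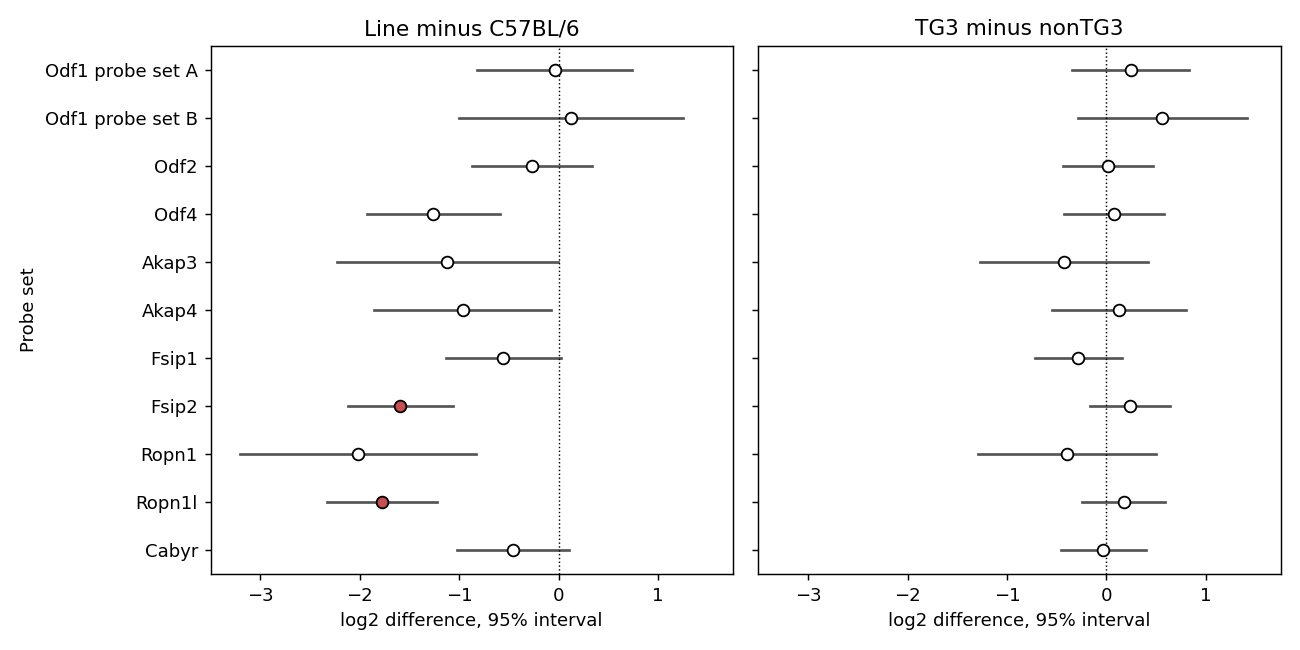
Log2 difference (points) with its 95% interval (lines) for each probe set, line minus C57BL/6 on the left and TG3 minus nonTG3 on the right. Filled points passed a limma adjusted p under 0.05; these were Fsip2 and Ropn1l on the left, and no point on the right.

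The calls of Fsip2 and Ropn1l were not kept in every fit with fewer arrays, while the size of both differences varied little. Leaving out 1 array of the line at a time, the Fsip2 difference stayed between -1.67 and -1.53 and that of Ropn1l between -1.84 and -1.71. Fsip2 lost its call without TG3 replicates 1, 2 or 3 or nonTG3 replicate 2 (limma adjusted p = 0.0677, 0.0735, 0.0684 and 0.0796). Ropn1l lost its call without TG3 replicates 1 or 3 or nonTG3 replicates 1 or 3 (limma adjusted p = 0.0566, 0.0583, 0.0530 and 0.0537). When the pools with least mitochondrial RNA, TG3 replicate 1 and nonTG3 replicate 3, were both left out, neither passed, at -1.68 and -1.78 (limma adjusted p = 0.0831 and 0.154). That fit called 0 of all probe sets, and the fits without 1 array called 350 to 496, against 710 in the main fit.

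Carriers and littermates were each compared with the same C57BL/6 array, so the comparisons are not independent. In TG3, Fsip2 fell by 1.47 (limma adjusted p = 0.0383) and Ropn1l by 1.69 (limma adjusted p = 0.0292), and these were 2 of 11 probe sets called lower, against 2.41% of all. In nonTG3, Fsip2 fell by 1.71 (limma adjusted p = 0.0242) and Ropn1l fell by 1.86 (limma adjusted p = 0.0222), again 2 of 11, against 2.43% of all. All 4 calls were lost when only the groups compared were fitted, at limma adjusted p = 0.101 (Fsip2) and 0.170 (Ropn1l) for TG3 and 0.185 and 0.144 for nonTG3. The TG3 call of Fsip2 was also lost after a repeated quantile normalization (limma adjusted p = 0.0548). Each of the 4 held in 1 and was lost in 5 of 6 leave-one-out fits. For TG3 the fits that kept it were those without nonTG3 replicate 3 for Fsip2 (limma adjusted p = 0.0254) and nonTG3 replicate 2 for Ropn1l (limma adjusted p = 0.0455). For nonTG3 they were those without nonTG3 replicate 3 for Fsip2 (limma adjusted p = 0.0243) and TG3 replicate 2 for Ropn1l (limma adjusted p = 0.0477). Over those fits the adjusted p reached 0.123 for Fsip2 and 0.101 for Ropn1l in TG3, and 0.108 and 0.0697 in nonTG3.

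Between TG3 and nonTG3, which asks what goes with the transgene among littermates, no gene of either structure passed the test. limma called 0 of the 11 probe sets, as it called 0% of all probe sets, and 0 of the 11 had an unadjusted p under 0.05, against 2.38% of all. The groups overlapped for all 11: in 0 of them did TG3 lie wholly above nonTG3 (2.47% of all probe sets) and in 0 wholly below (1.65%). The widest gap between means was that of Odf1 probe set B, with means of 8.29 ± 0.35 for TG3 and 7.73 ± 0.60 for nonTG3 (SD, n = 3 each), a difference of 0.56 (95% interval -0.29 to 1.41; limma adjusted p = 0.923). Probe set A of the same gene differed by 0.25, with 11.63 ± 0.40 for TG3 and 11.39 ± 0.25 for nonTG3.

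Among the sheath genes, Akap3 averaged 5.88 ± 0.63 in TG3 and 6.31 ± 0.25 in nonTG3, and Ropn1 averaged 5.45 ± 0.68 and 5.85 ± 0.26 (SD, n = 3 for each group). Without TG3 replicate 3 the differences shrank from -0.43 to -0.06 for Akap3 and from -0.40 to -0.03 for Ropn1. Ropn1l averaged 6.74 ± 0.21 and 6.57 ± 0.24, and Fsip2 averaged 4.89 ± 0.08 and 4.66 ± 0.29, TG3 before nonTG3. In two-sided exact permutation tests of TG3 against nonTG3 the p-values of the 11 probe sets ran from 0.2 to 1, where 0.1 is the smallest that 3 against 3 arrays allow. The 95% intervals of the 11 differences reached from -1.29 to 1.41 log2 units, with the widest for Ropn1 and Odf1 probe set B. For Fsip2, Ropn1l and Cabyr the intervals ran from -0.16 to 0.64, -0.25 to 0.59 and -0.46 to 0.40.

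The 6 arrays of the line also differed among themselves. The median SD over these arrays was 0.26 log2 units for the 11 probe sets and 0.21 for all probe sets. TG3 replicate 3 was the single lowest array for 6 of the 11 probe sets (Odf2, Akap3, Akap4, Fsip1, Ropn1 and Cabyr), where it was so for 19.2% of all probe sets. It was the highest for both probe sets of Odf1. NonTG3 replicate 3 was the single highest array for 7 of the 11 (Odf2, Odf4, Akap3, Fsip1, Fsip2, Ropn1 and Cabyr), against 20% of all.

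**Figure D3:**
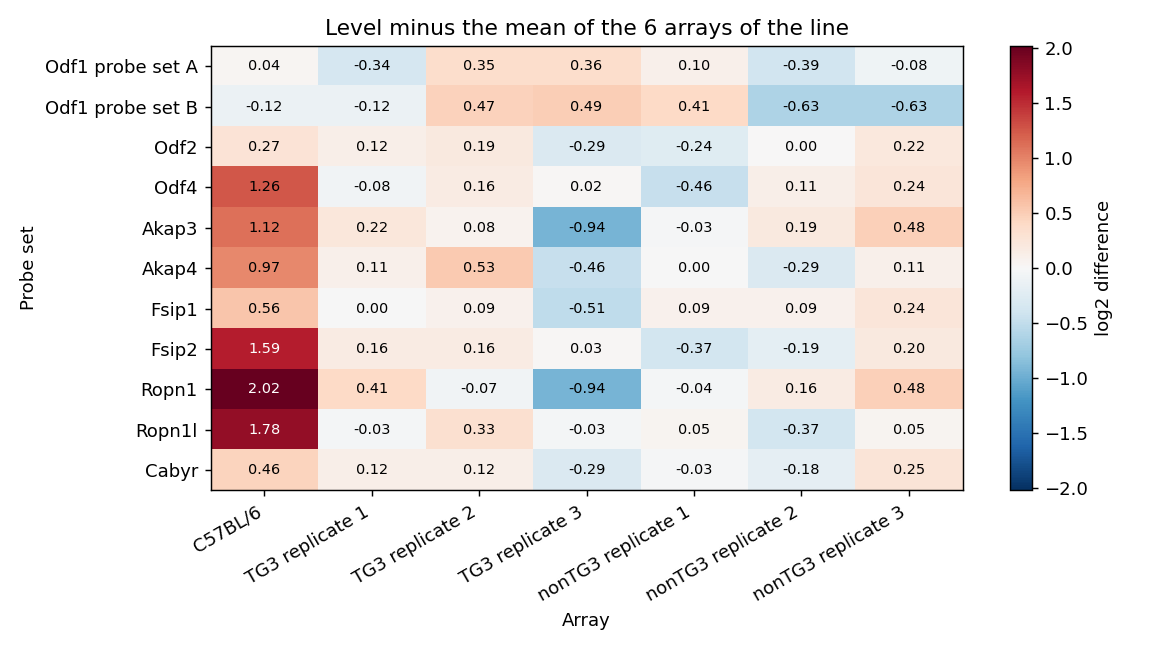
Level of each probe set on each array minus its mean over the 6 arrays of the line, in log2 units, by colour and printed number. On TG3 replicate 3, Akap3 and Ropn1 lie 0.94 below the mean of the line while Odf1 probe set A lies 0.36 above it.

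These shifts were shared by some genes and not by others. Over the 6 arrays of the line, Pearson's r was 0.98 between Akap3 and Ropn1 and 0.96 between Akap3 and Fsip1. Between Akap3 and Akap4, whose promoters share the run of 20 bases, it was 0.58. Odf1 probe set A ran against Ropn1 (r = -0.72) and with Ropn1l (r = 0.71), and with its own probe set B it had an r of 0.82. Without TG3 replicate 3, over 5 arrays, r was 0.89 between Akap3 and Ropn1, 0.62 between Akap3 and Fsip1 and -0.10 between Akap3 and Akap4. These correlations are descriptions over few arrays that were normalized together. TG3 replicate 3 did not have low mitochondrial RNA, at 11.51, and its spermatocyte and spermatogonial markers averaged 3.94 and its sperm and spermatid markers 8.55, each the lowest of the line. The part of these markers in the pattern was not tested.

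Other genes of the tail were read from lists of partner genes. Of 10 measured outer dense fibre partners 3 fell between the line and C57BL/6 and 0 rose, with a median difference of -0.26. For these lists too, the share called lower among all probe sets was 2.85%. They were Tssk4, a testis-specific kinase (5.38 for C57BL/6 against a line mean of 4.40 ± 0.10, SD, n = 6; limma adjusted p = 0.0139), Ccdc42, needed for tail formation (5.42 against 4.36 ± 0.12; limma adjusted p = 0.0229), and Odf3l1 (5.07 against 3.90 ± 0.16; limma adjusted p = 0.0366). Leaving out 1 array always lowered the count of calls in this list. It was 2 without TG3 replicates 1 or 2 or nonTG3 replicate 1. It was 1 without TG3 replicate 3 or nonTG3 replicate 3, and 0 without nonTG3 replicate 2. These fits called 350 to 496 of all probe sets, against 710 in the main fit. Of 15 fibrous sheath partners 1 fell, the sperm lactate dehydrogenase Ldhc (8.76 against 6.23 ± 0.19; limma adjusted p = 0.00532), and the median was -0.34.

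Of 10 genes of the annulus and mitochondrial sheath 2 fell, with a median of -0.42. They were Spata19, a protein of the mitochondrial sheath (8.97 against 4.91 ± 0.31; limma adjusted p = 0.00210), and the glycerol kinase Gk2 (7.39 against 4.24 ± 0.36; limma adjusted p = 0.0143). Of 10 genes of tail transport and assembly 1 fell, Meig1, needed for assembly of the tail's microtubule platform (8.36 against 5.30 ± 0.13; limma adjusted p = 0.00210). The median of that list was -0.10, which turned to 0.05 when the arrays were quantile normalized again. Without TG3 replicate 3 counts were 2 for fibrous sheath partners, 1 for the annulus and mitochondrial sheath and 2 for transport and assembly. Without nonTG3 replicate 3 the annulus and mitochondrial sheath count was 3. These 2 fits called 495 and 438 of all probe sets, against 710 in the main fit. With the 2 pools of least mitochondrial RNA left out, 0 genes were called in each of the 4 lists, as were 0 of all probe sets. Between TG3 and nonTG3 limma called 0 genes of these 4 lists. The median of the 10 outer dense fibre and fibrous sheath genes, at -1.04, was further from 0 than that of any of the 4 lists, but the difference between lists was not tested.

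**Figure D4:**
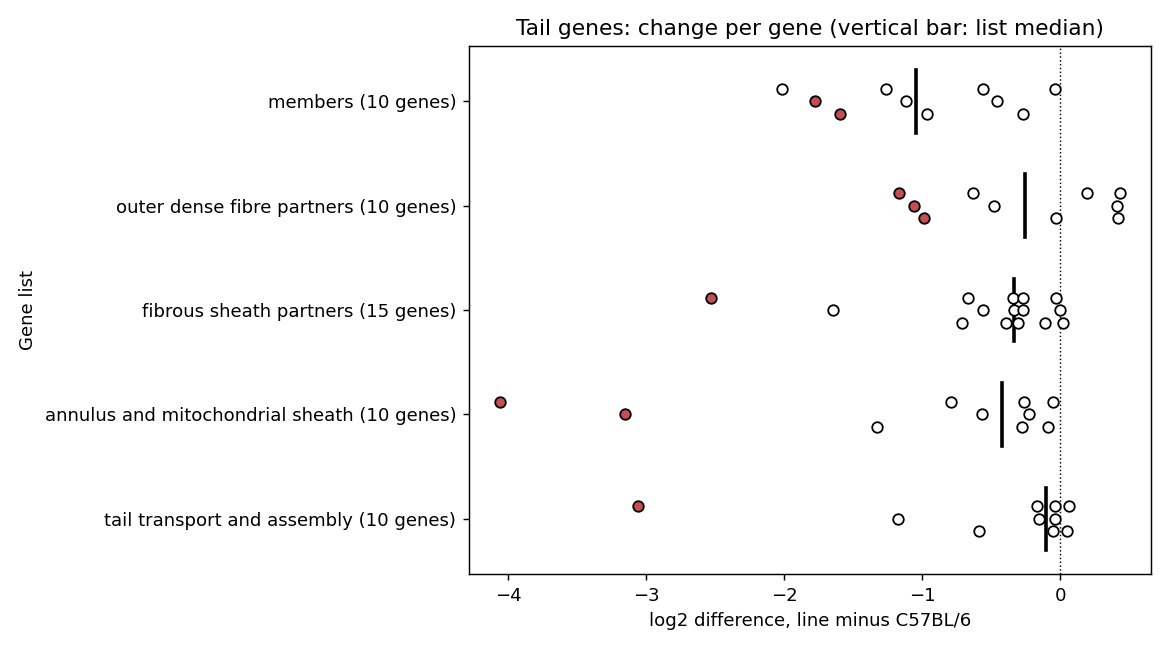
Log2 difference of the line minus C57BL/6 for each gene (points), with the median of each list (vertical bars); filled points passed a limma adjusted p under 0.05. The medians are -1.04 for the 10 outer dense fibre and fibrous sheath genes and -0.42 to -0.10 for the partner lists.

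Beside the differences from C57BL/6, 3 of 7 sperm and spermatid markers and 1 of 7 spermatocyte and spermatogonial markers were also called lower in the line, with medians of -0.42 and -0.50, against 2.85% of all probe sets. Of 9 Sertoli and Leydig cell markers 4 had lower and 5 higher means (median 0.013), and 2 were called lower. They were Cyp17a1, a steroid hydroxylase that Leydig cells use to make androgens, at 6.56 for C57BL/6 against a line mean of 2.40 ± 0.25 (SD, n = 6; 17.9-fold lower, limma adjusted p = 0.00293), and Star, at 4.25 and 3.23 ± 0.28 (limma adjusted p = 0.0286), both named after their values were seen. The Cyp17a1 difference, at -4.16, was further from 0 than that of any outer dense fibre or fibrous sheath gene here. Cyp11a1 and Hsd3b1, on the same list, differed by 0.013 and -0.010. Smcp stands in both the sperm list and the list of the mitochondrial sheath. Of 8 markers of the epididymal epithelium 1 was called higher, against 0.17% of all, and all 8 had higher means (median 0.22). Of 10 mitochondrially encoded RNAs 0 were called, and all 10 had lower means (median -0.90). Of 8 leukocyte markers 0 were called. Of 9 fibroblast, muscle and vessel markers 0 were called, and all 9 had higher means in the line (median 0.57). Among all probe sets 61% had a higher mean in the line and 38.9% a lower one. The part of other cell types in the differences was not tested.

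Candidates for likeness were 11838 other probe sets at or above the median level and without a clone or predicted gene name. Among them were sought the genes with array patterns most like those of Ropn1l, Fsip2 and Ropn1, of which Ropn1 was not called. For Ropn1l they were Rsph1, a radial spoke protein, Spata46 and Tcp1, with Pearson's r of 0.997, 0.996 and 0.994 over the 7 arrays. For Fsip2 they were Kif3a, a motor of intraflagellar transport, Brdt, a testis bromodomain protein, and Capza3, a capping protein of spermatids, with r of 0.997, 0.994 and 0.993. For Ropn1 they were Thegl, Cypt12 and Zfand4, at 0.997, 0.996 and 0.994. Such values are common here, since 587 of the 11838 had an r above 0.9 with Ropn1l and 430 with Fsip2. All 7 points share 1 normalization, and for each of these 3 genes the lone C57BL/6 array is the highest.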

How the data were processed

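Per the labels' protocols, RNA of 7 sperm pools was amplified, converted to cDNA and labelled with Affymetrix's SensationPlus kit for expression arrays. The authors deposited log2 intensities made with RMA; the submitters' processing notes name R 3.1.0, oligo, RMA and limma. Build, filters and scan batches: not given in the sources used here.

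Of 33604 probe sets, platform annotation gave 23493 a single symbol (1 each), 1801 several and 8310 none. Those with 1 symbol were tested. All were fitted in limma 3.58.1 (R 4.3.3) with a mean per group over the 7 arrays and eBayes (4 residual and 1.65 prior degrees of freedom). The C57BL/6 array, alone in its group, gives no spread of its own and was treated as if as variable as the rest. Within each comparison the Benjamini-Hochberg adjustment covered all 23493, and calls were made under 0.05. Arrays have no read depth; their number limits the precision.

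Named genes were all probe sets of the 10 genes, and of each partner list the called genes (up to 5). For likeness, the 3 probe sets with the highest r were taken, with clone and predicted gene names left out. The genes, lists and most alternatives were chosen with earlier results of these data known. The promoter motifs were chosen after the sequences were seen. Entrez identifiers matched all 10 genes to RefSeq's GRCm38.p6 table. The steps were tested on simulated data. Figures were drawn with matplotlib 3.10.9.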

Additional observations from a re-analysis of the deposited data

Results flagged for a closer look

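Among the 6 arrays of the line, TG3 replicate 3 lay far below the others for Akap3 and Fsip1. Akap3 read 5.15 there and 6.06 on the next lowest array, a gap of 0.644 of the whole range. Fsip1 read 5.19 against 5.70, a gap of 0.673 of the range. Both exceed Dixon's 95% critical value for 6 values, which chance passes in about 1 of 20 groups, and 11 probe sets were looked at. Without TG3 replicate 3 the difference between the line and C57BL/6 was -0.94 for Akap3 and -0.46 for Fsip1, and neither passed the test with or without it.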

How the results depend on the processing

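In all, 44 differences of single probe sets gave 748 values under the alternatives: 680 kept their direction and side of the threshold, 39 lost a call, 4 gained one and 25 changed sign. All 25 concerned small differences between TG3 and nonTG3 or Odf1. After a repeated quantile normalization TG3 minus nonTG3 was -0.0047 for Odf2 and 0.0010 for Cabyr, Odf1 probe set A was -0.021 in TG3 against C57BL/6, and probe set B was 0.030 in nonTG3 against C57BL/6. With cyclic loess Cabyr was 0.092 between TG3 and nonTG3, Odf1 probe set B was -0.063 in the line against C57BL/6, and probe set A was -0.12 in TG3 against C57BL/6. With array weights Cabyr was 0.069. Without both arrays of lowest mitochondrial RNA Cabyr was 0.019, Odf1 probe set A was 0.066 in the line and probe set B was 0.013 in nonTG3.

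Leaving out 1 array at a time, TG3 minus nonTG3 ran from -0.10 to 0.17 for Odf2, -0.14 to 0.21 for Odf4, -0.11 to 0.38 for Akap4 and -0.13 to 0.11 for Cabyr. Odf1 probe set A ran from -0.097 to 0.076 in the line and from -0.033 to 0.31 in TG3, each against C57BL/6. Probe set B ran from -0.051 to 0.22 in the line and from -0.50 to 0.013 in nonTG3. The 2 calls per comparison with C57BL/6 became 0 to 2 for the line and 0 to 1 for TG3 and for nonTG3. They were 0 in each at an adjusted p under 0.01, and 0 in each when both pools with least mitochondrial RNA were left out, which leaves fewer samples. With only the groups compared they were 0 for TG3 and for nonTG3, where 0 and 54 of all probe sets were called. After a repeated quantile normalization they were 1 for TG3. The median over the 10 genes ran from -1.17 to -0.84 over all alternatives. Over all probe sets the count called between the line and C57BL/6 was 710 in the main fit, 240 at an adjusted p under 0.01, and 0 with both of those pools left out.

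TG3 and nonTG3 share replicate numbers. With the replicate number as a block limma called 0 of the 11 probe sets between them, as without it. Across probe sets, deviations from the group mean had an r of -0.45, 0.016 and -0.40 between arrays of the same number. The 3 deviations of a group cancel out, so these values cannot show whether such arrays share more than a number. Signal over background is not analysed here. The cause of these changes was not tested.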
